A study of Mus musculus with 5 samples.

Results

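The receptors, receptor-activated Smads and Id factors through which bone morphogenetic proteins (BMPs) act were measured in sorted sympathetic neurons of mouse embryos at E14.5. The set was defined by name: *Bmpr1a*, *Bmpr1b*, *Acvr1*, *Bmpr2*, *Smad1*, *Smad5*, *Smad6*, *Id1*, *Id2* and *Id3*. Of these 10 genes, 9 were analysed, out of 20224 genes in the count table, and *Smad6* was not analysed here. They were listed by their role in the pathway, with earlier results of these data known.

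The control libraries (n = 2, numbered 5 and 6) came from control-*Ai14* embryos of genotype *Hif1a* loxP/+;*Isl1*Cre;tdTomatoAi14, and the *Hif1aCKO* libraries (n = 3, numbered 3, 4 and 5) from *Hif1a* loxP/loxP;*Isl1*Cre;tdTomatoAi14 embryos. Both groups also carried *Prph-eGFP*, a transgene that marks neurons expressing peripherin, and all embryos were from non-diabetic pregnancies. Cre was driven from the *Isl1* locus by a knock-in allele, so every embryo had 1 altered *Isl1* allele and every control had 1 floxed *Hif1a* allele. The labels also describe controls without Cre, but a sort on Cre-dependent tdTomato requires it. Each library held 100 cells positive for both reporters, taken from the sympathetic ganglia.

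BMPs bind a pair of type I and a pair of type II receptor kinases. The type II receptor phosphorylates the type I receptor, which phosphorylates Smad1 or Smad5, and these enter the nucleus with Smad4. The *Id* genes are classic direct targets: their products bind E proteins and keep them from pairing with tissue-restricted basic helix-loop-helix (bHLH) factors. In the sympathetic lineage, BMPs from the dorsal aorta start the programme, Hand2 and Gata3 included, that makes neural crest cells into noradrenergic neurons.

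The libraries held 8254211 to 9700887 counts. All 7 sympathetic markers examined (*Th*, *Dbh*, *Phox2a*, *Gata3*, *Slc18a2*, *Stmn2*, *Elavl4*) were present. Their summed level was 1409 and 1790.0 RPKM (reads per kb of exon, scaled for library size) in control and 1272, 1184 and 1250.0 in *Hif1aCKO*, lower in every *Hif1aCKO* library. Of the 7, 5 had log2 fold changes below 0 (*Th* -1.37, *Slc18a2* -0.58), while *Phox2a* (0.49) and *Elavl4* (0.06) were above 0. An unadjusted p under 0.05 was reached by 4, all lower, beside 3.85% lower over all genes. Of the 7, 0 were called at an adjusted p under 0.05. *Th* differed between the controls (2998 and 6985 normalized counts) and ranged from -1.86 to -0.64 with 1 library left out. Chromaffin markers (4 of 4 analysed) also summed to less in every *Hif1aCKO* library, with 354 and 474 in control and 131, 319 and 167 in *Hif1aCKO*. *Chgb* (log2 fold change -1.69) and *Pnmt* (-1.91, with few counts) were lower, while *Chga* was not (0.008). The sum mostly followed *Chgb*, at 230 and 363 RPKM in control and 32.4, 197 and 46.2 in *Hif1aCKO*. *Hif1a* itself gave 1835 ± 355 normalized counts in control and 2213 ± 499 in *Hif1aCKO*. Since exon 2 alone is floxed, a sum over the gene does not read the deletion. Glial markers (4 of 7 analysed) summed to 94.0 in *Hif1aCKO* 3 and to 0.645 to 1.70 in the other libraries, mostly through *Fabp7*, while *Sox10* had at most 8 counts in a library. Endothelial (2 of 7 analysed) and mesenchymal (4 of 7) markers summed to at most 0.481 and 0.263. Cell cycle genes (8 of 8) summed to 459 and 408 in control, and to 542, 672 and 588 in *Hif1aCKO*. The list did not move as 1: *Cdc20* (log2 fold change 0.95), *Mki67* (0.78) and *Ccnb1* (0.76) were higher. *Pcna* (-0.02), *Mcm2* (-0.11) and *Mcm6* (0.06) were near 0. The part of these marker shifts in the values of the BMP genes was not tested.

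Because the members are close relatives, the first question was whether the counts can tell them apart. The stretch of 60 coding bases in which each family is most alike is shown for this reason, written 5′ to 3′ on the coding strand from the GRCm38 genome. Capitals mark positions where the family members do not all have the same base. For the *Id* genes the stretch lies in the first coding exon and encodes the second helix of the helix-loop-helix domain, at chr12:25095779-25095838 (*Id2*, minus strand), chr2:152736582-152736641 (*Id1*, plus strand) and chr4:136144066-136144125 (*Id3*, plus strand).
Id2: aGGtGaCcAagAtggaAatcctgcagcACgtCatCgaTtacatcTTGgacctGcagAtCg
Id1: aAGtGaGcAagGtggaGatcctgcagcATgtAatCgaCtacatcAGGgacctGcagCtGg
Id3: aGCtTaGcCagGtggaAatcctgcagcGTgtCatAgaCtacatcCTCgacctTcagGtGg

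The type I receptor stretch encodes part of the kinase domain, at chr3:141856393-141856452 (*Bmpr1b*), chr14:34422604-34422663 (*Bmpr1a*) and chr2:58462903-58462962 (*Acvr1*), all on the minus strand.
Bmpr1b: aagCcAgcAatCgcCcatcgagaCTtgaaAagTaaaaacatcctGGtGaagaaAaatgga
Bmpr1a: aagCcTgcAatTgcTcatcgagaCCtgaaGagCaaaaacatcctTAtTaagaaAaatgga
Acvr1: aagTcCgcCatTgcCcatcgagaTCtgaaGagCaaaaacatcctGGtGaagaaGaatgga

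The Smad stretch encodes part of the DNA-binding MH1 domain, in exon 2 of *Smad1* at chr8:79372052-79372111 (minus strand) and in exon 2 of *Smad5* at chr13:56723669-56723728 (plus strand).
Smad1: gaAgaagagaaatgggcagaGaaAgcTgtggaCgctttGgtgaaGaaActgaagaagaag
Smad5: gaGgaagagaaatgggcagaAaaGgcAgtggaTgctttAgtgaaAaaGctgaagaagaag

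In these stretches 42 of 60 bases were the same in all *Id* genes and 47 of 60 in the type I receptors. In the Smads 52 of 60 were the same. Even so, no run of 30 bases was shared within any of these families. A read of that length that matches exactly therefore has 1 place within its family. Runs shared with genes outside the set made up 4.09% of the *Bmpr1a* transcripts, all with *Gm17110*, an antisense gene that overlaps 4.57% of the *Bmpr1a* exonic bases. For the other members the share was at most 1.73%, the value of *Id2*, whose runs were shared with *Gm6175*.

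Levels were compared between genes as RPKM. *Bmpr1b* was the main type I receptor transcript, at 16.6 and 26.8 in the control libraries and 27.7, 26.4 and 17.0 in the *Hif1aCKO* libraries. *Bmpr1a*, the type I receptor that pairs with the same ligands, lay at 7.63 and 4.59 in control and at 7.01, 8.99 and 9.05 in *Hif1aCKO*. *Acvr1* (ALK2) was lowest in every library, with 1.48 and 1.56 in control and 1.599, 2.29 and 1.64 in *Hif1aCKO*. These ranges did not overlap, so the order *Bmpr1b*, *Bmpr1a*, *Acvr1* held in all 5 libraries. *Bmpr2*, the type II receptor dedicated to BMPs, ranged from 4.02 to 7.15 and overlapped with *Bmpr1a*. This overlap rests on the division by exon length (17983 bases for *Bmpr2*, 6351 for *Bmpr1a*). In normalized counts *Bmpr2* was above *Bmpr1a* in every library.

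Among the nuclear components, *Id2* was by far the main Id transcript, with a level of 20.4 to 41.5 RPKM. *Id1* ranged from 1.55 to 11.8 and *Id3* from 1.53 to 11.3, so these neighbours in the order could not be separated. *Smad1* (7.91 to 17.1) exceeded *Smad5* (3.70 to 7.60) in every library, although by little in *Hif1aCKO* 3 (7.91 against 7.60). This order rests on the division by exon length. In normalized counts *Smad5* was above *Smad1* in control 6 (453 against 440) and in *Hif1aCKO* 3 (493 against 433). Among the 15032 genes tested, the mean level of *Id2* stood at percentile 86.3 and that of *Bmpr1b* at 82.6, whereas *Acvr1* stood at 26.7.

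**Figure D1:**
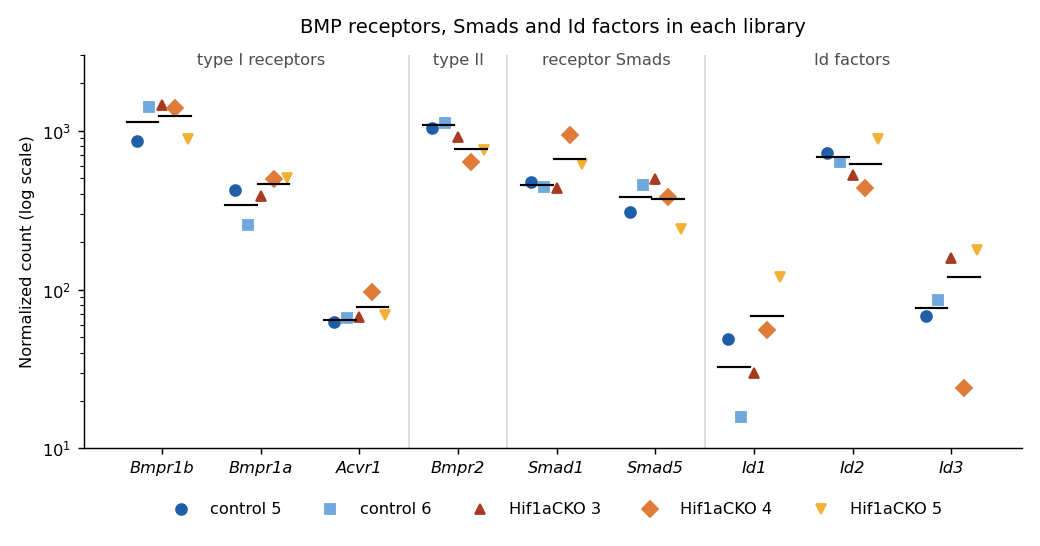
Normalized counts (log scale) of the 9 members in each library, with 1 symbol per library and a short line at each group mean. Only *Bmpr2* and *Acvr1* had groups that did not overlap, and *Id1* and *Id3* spread most between libraries.

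The comparison of *Hif1aCKO* with control asked whether loss of *Hif1a* altered this pathway in developing sympathetic neurons. None of the 9 members passed the test (adjusted p < 0.05, absolute log2 fold change above 0.3 and a mean of at least 50 normalized counts). By edgeR's quasi-likelihood test, 0 of 15032 genes (0%) passed, and the smallest adjusted p was 0.446. DESeq2 called 60 of 15477 genes (0.388%), the edgeR likelihood ratio test 40 and limma-voom 0, and none of these called a member. At an unadjusted p under 0.05, 1 member was lower, where 7.67% of all genes were under that value (3.85% lower and 3.83% higher in *Hif1aCKO*). Groups did not overlap for 2 members, 1 lower and 1 higher, against 25.7% of all genes (12.9% lower and 12.9% higher). Of the members, 6 had a log2 fold change above 0 and 3 below, with a median of 0.28, beside 0.012 over all genes tested, of which 51.3% were above 0. The labels give 2 control and 3 *Hif1aCKO* biological samples from dissected embryos and do not say whether a library pooled embryos. In RNA pooled from 100 cells, fewer cells with a transcript and less transcript per cell cannot be told apart.

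*Bmpr2* (chr1:59763400-59879014, plus strand) was the member with the smallest p. Its normalized counts, scaled to the mean library size, were 1036 and 1124 in control and 911, 633 and 759 in *Hif1aCKO*. Every *Hif1aCKO* library was below both controls. The means were 1080 ± 62.1 (SD, n = 2) and 768 ± 139 (SD, n = 3), a log2 fold change of -0.49 (SE 0.19, 95% confidence interval -0.93 to -0.05), with an unadjusted p under 0.05 and an adjusted p of 0.621 by edgeR's quasi-likelihood test. Leaving out *Hif1aCKO* 3, the library with the glial transcripts, gave -0.64 (unadjusted p under 0.05). Without any 1 of the other libraries the value ranged from -0.55 to -0.37 and the unadjusted p exceeded 0.05.

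The type I receptors had higher means in *Hif1aCKO*, and none passed the test. *Bmpr1a* (chr14:34410734-34503341, minus strand) gave 424 and 255 normalized counts in control and 389, 499 and 503 in *Hif1aCKO*. Control 5 fell within the *Hif1aCKO* range, and the spread between the controls was 119 (SD) around a mean of 339. The log2 fold change was 0.45 (SE 0.27, adjusted p = 0.722), and it ranged from 0.12 without control 6 to 0.86 without control 5, where the unadjusted p was under 0.05.

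*Bmpr1b* (chr3:141837136-142169425, minus strand) gave 863 and 1399 normalized counts in control and 1444, 1378 and 886 in *Hif1aCKO*. Each group held 1 low library and at least 1 high one, so the groups overlapped over almost their whole range. Its log2 fold change was 0.13 (SE 0.27, 95% interval -0.50 to 0.76, adjusted p = 0.949) and turned to -0.18 without control 5. *Acvr1* (chr2:58388644-58567157, minus strand), a receptor that also binds activins, gave 62.5 and 65.9 normalized counts in control and 67.6, 96.9 and 69.1 in *Hif1aCKO*. The groups did not overlap, but the nearest libraries, control 6 and *Hif1aCKO* 3, were almost equal. The log2 fold change was 0.28 (SE 0.42, adjusted p = 0.918) and fell to 0.089 without *Hif1aCKO* 4.

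Expressed as shares of the summed type I level, which do not depend on library size, *Bmpr1b* made up 61.4 to 81.4%, *Bmpr1a* 13.9 to 32.7% and *Acvr1* 4.41 to 6.08%. The *Bmpr1a* share was 21.8 ± 11.2% in control (n = 2) and 25.3 ± 6.82% in *Hif1aCKO* (n = 3), a difference of 3.45 percentage points (exact permutation test, two-sided, p = 0.8). With 2 against 3 libraries this test cannot give a p below 0.1. The *Bmpr1a* difference turned to -4.45 points without control 6 and to -0.259 without *Hif1aCKO* 5, so its sign rested on those libraries.

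**Figure D2:**
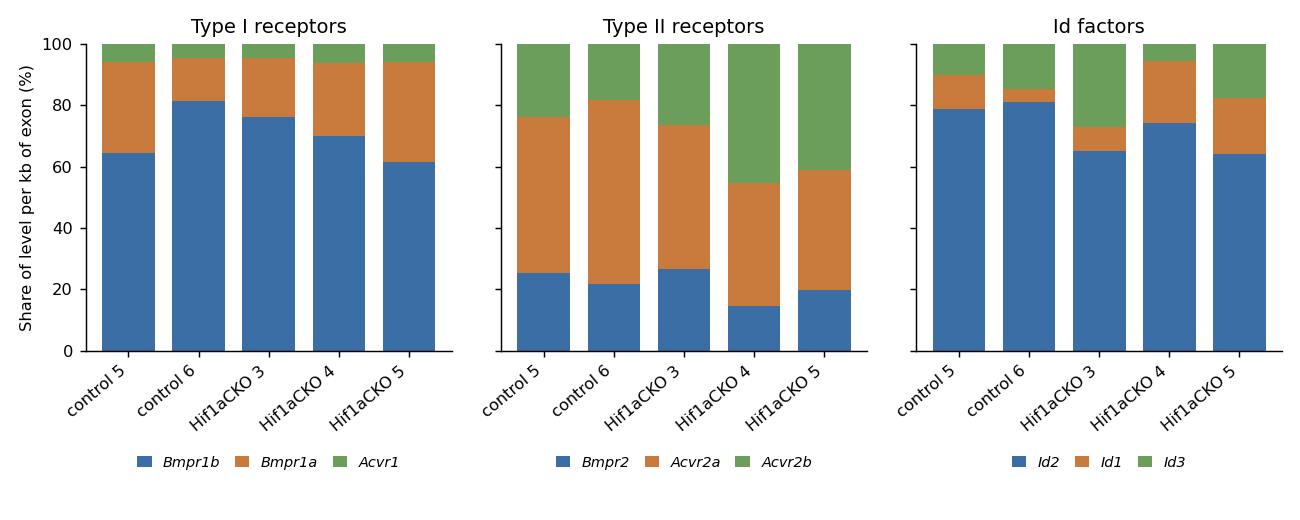
Shares of the summed level per kb of exon (%) within the type I receptors, type II receptors and Id factors, 1 bar per library. *Bmpr1b* and *Id2* were the largest share of their families in every library, and the *Id2* share was 78.8 and 81.0% in control and 64.3 to 74.3% in *Hif1aCKO*.

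*Bmpr2* shares its type I partners with the activin receptors *Acvr2a* and *Acvr2b*, and the 3 type II transcripts had log2 fold changes of unlike sign. *Acvr2a* gave 662 and 981 normalized counts in control and 504, 545 and 479 in *Hif1aCKO*. All *Hif1aCKO* libraries lay below both controls, with a log2 fold change of -0.69 (SE 0.21, unadjusted p under 0.05, adjusted p = 0.598). *Acvr2b*, chosen after its values were seen, gave 214 and 207 in control and 197, 426 and 344 in *Hif1aCKO* (log2 fold change 0.62, SE 0.34, adjusted p = 0.715). *Hif1aCKO* 3 was below both controls and the other *Hif1aCKO* libraries above them.

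As a description of values chosen after they were seen, *Acvr2b* made up 23.8 and 18.3% of the type II level in control and 26.5, 45.3 and 41.0% in *Hif1aCKO*. The *Bmpr2* share itself overlapped between groups (25.2 and 21.7% against 26.7, 14.7 and 19.7%). Set against the summed type I level, the log2 ratio of *Bmpr2* was -1.96 and -2.21 in control and -2.65, -3.23 and -2.52 in *Hif1aCKO*. These shares and ratios of transcript levels rest on the division by exon length and do not measure receptor protein. That length was 17983 bases for *Bmpr2*, 5686 for *Acvr2a* and 3928 for *Acvr2b*. In normalized counts *Bmpr2* was above *Acvr2a* and *Acvr2b* in every library.

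Of the other receptors and co-receptors (8 tested, 12 analysed, 14 in the list), 3 had an unadjusted p under 0.05, all lower. Over all genes 3.85% were lower at that value. Of the 8 tested, 0 passed the test, and their median log2 fold change was -0.11. *Tgfbr3*, the betaglycan co-receptor, gave 223 and 235 normalized counts in control and 48.3, 22.0 and 125 in *Hif1aCKO* (log2 fold change -1.81, SE 0.61, adjusted p = 0.621). *Tgfbr1*, the type I receptor for TGF-β, gave 2025 and 2561 in control and 1926, 1479 and 1061 in *Hif1aCKO* (-0.62, SE 0.24, adjusted p = 0.621). In both genes no *Hif1aCKO* library reached the lower control, as in 12.9% of all genes.

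The receptor Smads did not separate the genotypes. *Smad1* (chr8:79338395-79399518, minus strand) gave 472 and 440 normalized counts in control and 433, 939 and 614 in *Hif1aCKO*. *Hif1aCKO* 4 and 5 were above both controls and *Hif1aCKO* 3 was slightly below them. The log2 fold change was 0.54 (SE 0.31, adjusted p = 0.715), 0.20 without *Hif1aCKO* 4 and 0.77 without *Hif1aCKO* 3, where the unadjusted p was under 0.05.

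*Smad5* (chr13:56703010-56742377, plus strand) gave 309 and 453 normalized counts in control and 493, 383 and 240 in *Hif1aCKO*. The *Hif1aCKO* libraries reached both above and below the controls. Its log2 fold change was -0.035 (SE 0.33, 95% interval -0.79 to 0.72, adjusted p = 0.989) and changed sign with the library left out (0.26 without control 6, 0.20 without *Hif1aCKO* 5). The log2 ratio of *Smad1* to *Smad5* level was 0.85 and 0.20 in control and 0.058, 1.54 and 1.598 in *Hif1aCKO*, again with overlap.

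Among the other Smads (3 tested, 4 analysed, 5 in the list), *Smad4*, the partner shared by the BMP and TGF-β branches, and *Smad2*, a receptor Smad of the TGF-β and activin branch, had log2 fold changes of opposite sign. *Smad4* gave 340 and 297 normalized counts in control and 405, 580 and 423 in *Hif1aCKO* (log2 fold change 0.56, SE 0.24, unadjusted p under 0.05, adjusted p = 0.647). *Smad2* gave 1388 and 1424 in control and 1132, 826 and 899 in *Hif1aCKO* (-0.56, SE 0.18, unadjusted p under 0.05, adjusted p = 0.610). Groups did not overlap for either gene, beside 12.9% of all genes in each direction, and neither passed the test. Their log2 ratio (*Smad4* to *Smad2* level, formed after the values were seen) was -0.79 and -1.02 in control and -0.24, 0.73 and 0.16 in *Hif1aCKO*.

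The 18 regulators of Smads (all tested, 0 passed) had a median log2 fold change of -0.011, with 9 above 0 and 9 below. *Tob1*, a protein that binds receptor Smads and represses BMP targets, gave 318 and 311 normalized counts in control and 469, 489 and 501 in *Hif1aCKO*. Libraries within each group lay close together, and the log2 fold change was 0.63 (SE 0.19, unadjusted p under 0.05, adjusted p = 0.599). *Usp9x*, the deubiquitinase of Smad4, gave 774 and 831 in control and 589, 689 and 519 in *Hif1aCKO* (-0.42, SE 0.18, adjusted p = 0.648). The most abundant regulators, *Fkbp1a* (-0.20, adjusted p = 0.829) and *Stub1* (0.16, adjusted p = 0.830), overlapped between groups.

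**Figure D3:**
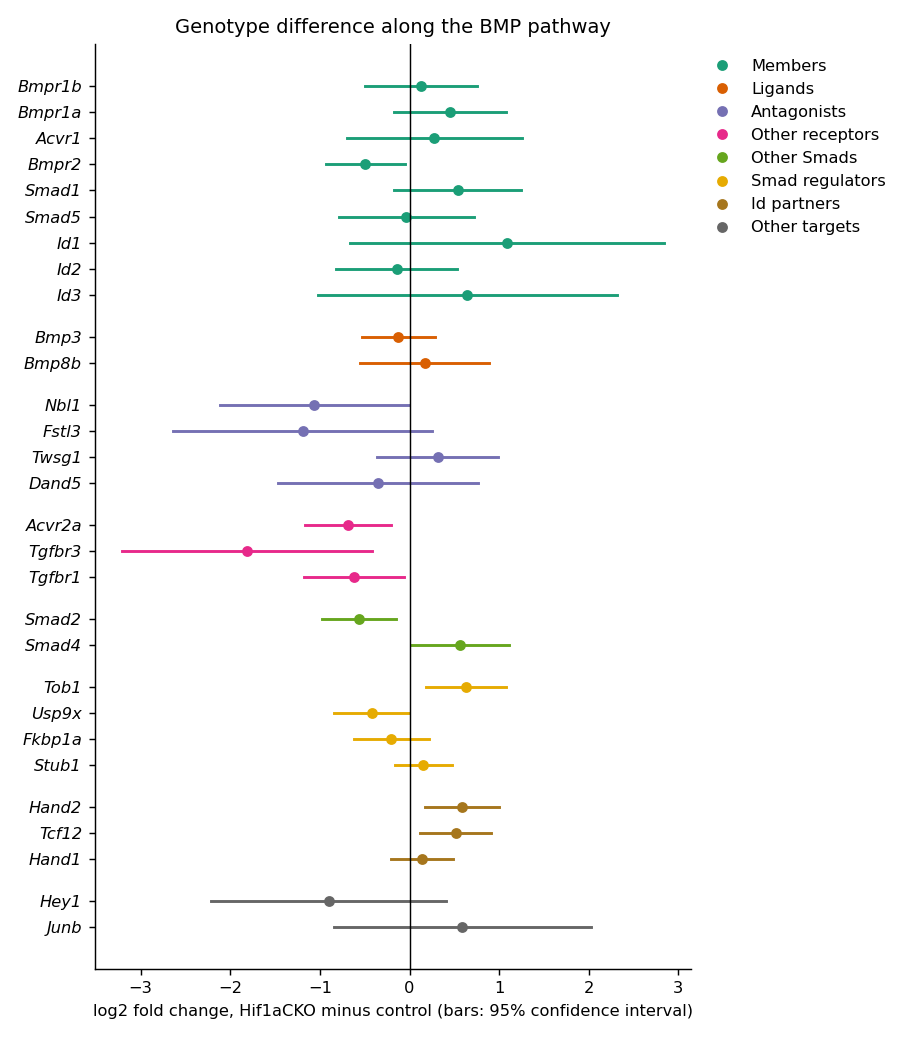
Log2 fold change of *Hif1aCKO* minus control (points) with 95% confidence intervals (bars) for the 9 members and the pathway genes named by the rule, coloured by list. The interval of *Bmpr2* (-0.93 to -0.05) was the only one among the members that excluded 0, and those of *Id1* and *Id3* were the widest.

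*Id1* and *Id3* were the most variable members. *Id1* (chr2:152736251-152737410, plus strand) gave 49.0 and 15.8 normalized counts in control and 30.02, 55.9 and 120 in *Hif1aCKO*, and 17 to 123 raw counts. *Hif1aCKO* 3 lay between the controls and *Hif1aCKO* 5 far above the rest. The log2 fold change was 1.09 (SE 0.76, 95% interval -0.67 to 2.84, adjusted p = 0.765), and it ranged from 0.41 without *Hif1aCKO* 5 to 2.11 without control 5. From the lowest to the highest library *Id1* spanned 7.59-fold. The median span was 1.87-fold over 14039 genes with a count in every library, which were not matched to *Id1* in count level.

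*Id3* (chr4:136143497-136145755, plus strand) gave 67.7 and 85.3 normalized counts in control and 159, 24.0 and 177 in *Hif1aCKO*, a span of 7.39-fold. *Hif1aCKO* 3 and 5 were above both controls and *Hif1aCKO* 4 below them. The log2 fold change was 0.65 (SE 0.72, adjusted p = 0.874). It was 1.13 without *Hif1aCKO* 4 (unadjusted p under 0.05), 0.25 without *Hif1aCKO* 5 and 0.39 without *Hif1aCKO* 3, the library in which glial markers summed to 94.0. By limma-voom with all libraries it was 0.19. The part of those glial transcripts in the *Id3* value was not tested.

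*Id2* (chr12:25093799-25097140, minus strand), the abundant family member, gave 724 and 635 normalized counts in control and 523, 434 and 885 in *Hif1aCKO*. *Hif1aCKO* 3 and 4 were below both controls and *Hif1aCKO* 5 above them. Its log2 fold change was -0.14 (SE 0.30, 95% interval -0.83 to 0.54, adjusted p = 0.948), -0.50 without *Hif1aCKO* 5 (unadjusted p under 0.05) and 0.051 without *Hif1aCKO* 4.

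Within the family, *Id2* made up 78.8 and 81.0% of the Id level in control and 65.2, 74.3 and 64.3% in *Hif1aCKO*. Every *Hif1aCKO* library had the lower share. The means were 79.9 ± 1.55% (n = 2) and 67.9 ± 5.55% (n = 3), a difference of -11.9 percentage points (exact permutation test, two-sided, p = 0.2). Different members filled the rest in different libraries. *Id3* reached 26.9% in *Hif1aCKO* 3, *Id1* 20.1% in *Hif1aCKO* 4, and both 17.5 to 18.3% in *Hif1aCKO* 5. The summed Id level overlapped between groups (43.1 and 36.8 RPKM in control, 37.6, 27.4 and 64.6 in *Hif1aCKO*). The summed cell cycle level given above was also higher in every *Hif1aCKO* library, and its part in the Id share was not tested.

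Id4 and the bHLH factors that Id proteins hold in check (7 tested, 7 analysed, 10 in the list) had log2 fold changes above 0 in all 7 cases, where 51.3% of all genes were above 0, with a median of 0.59. Groups did not overlap for 5 of them, all higher in *Hif1aCKO*, beside 12.9% of all genes, and 0 passed the test. *Hand2*, a factor needed for noradrenergic differentiation, gave 1292 and 1090 normalized counts in control and 1486, 1974 and 1911 in *Hif1aCKO* (log2 fold change 0.59, SE 0.18, unadjusted p under 0.05, adjusted p = 0.599). *Tcf12*, the E protein HEB, gave 573 and 501 in control and 744, 830 and 732 in *Hif1aCKO* (0.52, SE 0.17, unadjusted p under 0.05, adjusted p = 0.621). *Hand1*, the most abundant of the list, overlapped between groups (0.14, SE 0.15, adjusted p = 0.861).

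The other members of the list with separate groups are named here after their values were seen. *Neurod1*, a neuronal bHLH factor, gave 64.6 and 42.7 normalized counts in control and, in *Hif1aCKO*, 89.0, 127 and 83.7 (log2 fold change 0.90, SE 0.44, adjusted p = 0.691). *Tcf3*, the E protein that encodes E12 and E47, gave 447 and 312 against 453, 556 and 711 (0.60, SE 0.26, adjusted p = 0.656), and control 5 nearly reached *Hif1aCKO* 3. *Id4* was low, with 5.21 and 8.35 normalized counts in control and 10.7, 13.0 and 30.2 in *Hif1aCKO* (1.39, SE 1.01, adjusted p = 0.772).

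**Figure D4:**
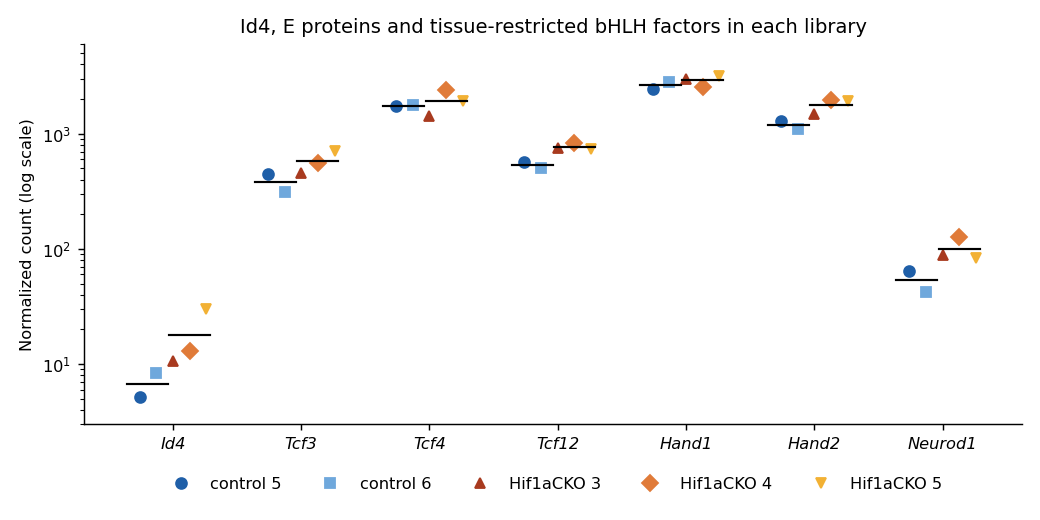
Normalized counts (log scale) of *Id4*, the E proteins (*Tcf3*, *Tcf4*, *Tcf12*) and tissue-restricted bHLH factors in each library, with a short line at each group mean. All means were higher in *Hif1aCKO*, and the groups overlapped for *Tcf4* and *Hand1*.

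At the start of the pathway, *Bmp3* was the most abundant ligand transcript in these neurons, with 5103 and 4217 normalized counts in control and 4729, 4733 and 3374 in *Hif1aCKO*. BMP3 is an atypical ligand that antagonizes other BMPs. The groups overlapped (log2 fold change -0.12, SE 0.18, adjusted p = 0.907), as they did for *Bmp8b* (0.17, SE 0.31, adjusted p = 0.938). Of the ligands, 4 were tested, 7 analysed and 13 in the list, with 0 at an unadjusted p under 0.05.

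Secreted antagonists (9 tested, 12 analysed, 16 in the list) had 6 values below 0 and 3 above, with 0 passing the test. *Nbl1*, which encodes the BMP antagonist DAN, gave 72.9 and 104 normalized counts in control and 35.4, 40.9 and 50.6 in *Hif1aCKO* (log2 fold change -1.06, SE 0.46, unadjusted p under 0.05, adjusted p = 0.647). *Fstl3*, a binding protein for activins, gave 63.5 and 57.5 in control and 42.9, 20.0 and 16.5 in *Hif1aCKO* (-1.19, SE 0.63, adjusted p = 0.701). Both genes were lower in all 3 *Hif1aCKO* libraries than in either control, as were 12.9% of all genes. *Twsg1* (0.31, adjusted p = 0.841) and *Dand5* (-0.35, adjusted p = 0.903) overlapped between groups.

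Outside the Id family, 2 further BMP targets were tested of 3 analysed and 8 in the list. *Hey1*, a target shared with Notch signalling, gave a log2 fold change of -0.90 (SE 0.57, adjusted p = 0.735). *Junb*, an immediate early gene, gave 0.59 (SE 0.62, adjusted p = 0.862). Both overlapped between groups.

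The promoters were searched for GGCGCC, the GC-rich element bound by BMP Smads, on both strands from 250 bases before to 50 bases after each RefSeq transcript start (GRCm38.p6), for the 9 of 10 genes with an entry (not *Id1*). It was found in 5 of the 13 windows of these genes, namely those of *Bmpr1a*, *Bmpr2* and *Id2* and 2 of the 3 of *Smad5*, beside 11.9% of 32851 windows of the same length over all genes. The 2 *Smad5* windows overlap and hold the same match, at 23 from 1 start and -19 from the other, so it is counted more than once. The *Id2* stretch is shown because *Id2* carries most of the Id transcript. It spans chr12:25096254-25096342 on the minus strand, outside annotated exons, and lies in an intron of a longer *Id2* transcript.
Id2 promoter: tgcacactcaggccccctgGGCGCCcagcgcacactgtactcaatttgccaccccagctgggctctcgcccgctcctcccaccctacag
Capitals mark GGCGCC, which starts 231 bases before the transcript start. The palindrome GTCTAGAC, a Smad4 binding sequence, was found in the *Smad6* window alone among the members, beside 0.213% of all windows. These matches describe the letters of the windows, and binding was not measured.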

How the data were processed

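Sympathetic neurons of 2 control and 3 *Hif1aCKO* libraries were profiled by bulk RNA-seq of 100 cells each. The authors deposited raw read counts per Ensembl gene. They trimmed reads (cutadapt 1.18, Trimmomatic), removed ribosomal and vector reads (Bowtie 1.2.2, SortMeRNA), mapped them to GRCm38 (STAR 2.7.0c), and counted them with Rsubread without multi-mapping reads. Strand was not stated to be used in counting, so reads in the exonic bases common to *Bmpr1a* and antisense *Gm17110* may be miscounted or lost. Of 20224 identifiers, 20189 matched GENCODE M21, which gave names, positions and exon lengths (RPKM here are counts per kb of exon, scaled by TMM).

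Counts were fitted in edgeR 4.0.16 (R 4.3.3; TMM, filterByExpr, quasi-likelihood test, Benjamini-Hochberg over 15032 genes), with genotype as the factor. In simulated data the code recovered the median size of planted fold changes. That check does not show what share of real changes would be called. Unadjusted p-values and intervals come from the same fit. DESeq2 1.42.0 and limma 3.58.1 served as alternatives. The members and lists were chosen with earlier results of these data known. Some genes of the lists are not reported here and were left out of their counts. Named pathway genes were the 2 with the smallest p and the 2 with the highest level per list. Other cell type lists gave these results: erythroid, 1 of 6 analysed and at most 1.47 RPKM; dissociation, 7 of 8 and 48.2 to 72.9 RPKM. *Isl1*, the locus that carries Cre, had a log2 fold change of -0.67, with every *Hif1aCKO* library below both controls. Its adjusted p of 0.446 by edgeR's quasi-likelihood test equalled the smallest over all genes, and it did not pass. *Prph* had a log2 fold change of 0.15, and its groups overlapped. Counting error alone does not cover the spread between libraries, whose biological coefficient of variation was 0.384.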

Additional observations from a re-analysis of the deposited data

How the results depend on the processing

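Of 108 pairs of a member and an alternative setting, 104 kept the direction, and none of the 63 that kept all libraries reversed it. The 4 reversals were *Bmpr1b* without control 5 (-0.18, range with 1 library left out -0.18 to 0.51), *Smad5* without control 6 (0.26) and without *Hif1aCKO* 5 (0.20, range -0.29 to 0.26), and *Id2* without *Hif1aCKO* 4 (0.051, range -0.50 to 0.051). No member was called under any setting run. Over all genes, DESeq2 called 60 and the edgeR likelihood ratio test 40, while 0 to 4 were called with 1 library left out, the 4 without control 5. With 1 library left out, 0 (without control 6) to 2 (without *Hif1aCKO* 3) members had an unadjusted p under 0.05, against 1 with all. Groups did not overlap for 3 to 5 members, against 2, with 5 without *Hif1aCKO* 3 and 4 without control 5. With fewer libraries, non-overlap is reached more easily. The median log2 fold change of the members ranged from 0.089 (without *Hif1aCKO* 4) to 0.37. The difference in the *Bmpr1a* share ranged from -4.45 (without control 6) to 11.3 points, and was -0.259 without *Hif1aCKO* 5. That in the *Id2* share ranged from -15.1 to -10.1 points with 1 library left out. It was -8.58 points with counts not divided by exon length. No paired analysis was run, because the groups share only the number 5 and the labels do not say what the numbers mark. The planned ratio of *Smad6* to receptor Smads was not run. The cause of these shifts was not tested. With 17 raw counts for *Id1* in control 6 and 24 for *Id3* in *Hif1aCKO* 4, counting error is large for these genes. Where 1 control was left, it was assumed to vary like the *Hif1aCKO* libraries.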
